A study of Mus musculus with 15 samples.

Results

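Binding regions of the homeodomain factor Dlx5 were set against those of the zinc finger factor Sp1 in MC3T3-E1 cells, a line of mouse calvarial pre-osteoblasts. A region was a stretch of merged peaks that held a peak of both libraries of a factor and met no peak of the GFP control taken through the same FLAG pulldown. This gave 23688 Dlx5 and 8942 Sp1 regions, 32630 in all, from 4 of the 12 peak lists of the series, which hold 165108 peaks together. The groups compared are MC3_Dlx5-FLAG and MC3_Sp1-FLAG, with 2 libraries each, and MC3_GFP-FLAG, with 1. MC3_Sp7-FLAG, MC3_Sp7mut-FLAG (a form of Sp7 whose change the labels do not give) and POB_Sp7-FLAG, with 2 libraries each, were set beside them. The POB libraries are calvarial osteoblasts of C57BL/6 mice at postnatal day 1 with the genotype Sp7-BioFL/BioFL, cleared of the peaks of 1 wild-type FLAG library, POB_WT-FLAG. Per the labels, all the others were MC3T3-E1 cells of passages 5 to 10, grown for 1 week in a bone-inducing medium (10% serum, 10 mM beta-glycerophosphate, 50 ug/ml ascorbic acid phosphate and 10 ng/ml of the growth factor BMP2), and every library was pulled down with the FLAG M2 antibody. How the tagged proteins were expressed, and whether the 2 libraries of a group came from separate cultures, is not given in the sources used here, so the spread between libraries may be technical.

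Dlx5 belongs to the Distal-less family of homeodomain proteins, which bind short AT-rich sites built around a TAAT core and act in the patterning of the limbs, the jaw and the forebrain and in bone formation. Sp1, found in nearly every cell type, reads DNA through zinc fingers at GC boxes, which are common in promoters, above all those of housekeeping genes. Sp7 (Osterix), the factor the series is about, shares its zinc finger type with Sp1, while the title of the series pairs it with Dlx proteins, so that Dlx5 and Sp1 stand for the different kinds of site. The files hold positions in the mouse build mm9 and no sequence, and no genome or gene annotation of that build was used here. Motifs, promoters and genes at the regions are therefore not described, and position is given by chromosome, by neighbouring regions and by bins of 1 Mb.

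The Dlx5 lists held 30234 peaks in replicate 1 and 39749 in replicate 2, with median widths of 178 and 173 bp. The Sp1 lists held 10549 and 28210 peaks, with median widths of 157 and 152 bp, so that 1 Dlx5 list was close in number to the longer Sp1 list. The GFP control had 269 peaks. Of the Dlx5 peaks 0.572% and 0.304% met a control peak, and of the Sp1 peaks 1.69% and 0.773%. Removing such regions took away 115 of 23803 Dlx5 regions (0.483%) and 166 of 9108 Sp1 regions (1.82%), and 87 of these were shared by both factors. The Dlx5 lists were called against a different input library than the Sp1 lists, so input and factor cannot be told apart in any comparison here. The lists give no score or read count, so the depth behind a peak is unknown. What the row order follows is not stated, but peaks that the other replicate lacked stood late in it, at a median of 76.1% and 71.1% of the way down the Dlx5 lists and 74.1% and 65.6% down the Sp1 lists. Peaks found in both stood at 42.2% and 34.4%, and at 46.2% and 17.1%.

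Most regions of Dlx5 and of Sp1 did not overlap one of the other factor. Of the Dlx5 regions, 2749 (11.6%, 95% Clopper-Pearson interval 11.20 to 12.02) overlapped an Sp1 region by at least 1 bp. Seen from Sp1, 2733 regions (30.6%, 29.6 to 31.5) overlapped a Dlx5 region. This left 20939 regions of Dlx5 without Sp1 and 6209 of Sp1 without Dlx5. The intervals cover counting error only. For scale, the Dlx5 regions covered 5933 kb and the Sp1 regions 2148 kb, out of 2565.7 Mb spanned by peaks. How much overlap unrelated sets of this size would have was not tested, so the shares do not show that the factors avoid each other.

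The share of Dlx5 regions with Sp1 depended on which Sp1 list was used. Requiring both replicates gave a value near those of the shorter list, replicate 1. With single lists in place of regions found in both replicates, Sp1 replicate 1 met 11.5% of the merged peaks of Dlx5 replicate 1 and 9.20% of those of replicate 2. Sp1 replicate 2 met 36.1% and 28.9%. Seen from the Sp1 lists the values were closer, at 33.3% and 35.4% for replicate 1 and 38.9% and 41.2% for replicate 2. Sp1 replicate 2 held 18634 merged peaks that replicate 1 lacked, and 35.9% of these met a Dlx5 region, against 29.5% of the 9025 that replicate 1 also had. Requiring a peak of both Sp1 replicates thus left out 6681 peaks of replicate 2 at Dlx5 regions.

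Outside control peaks, few of the regions highest in the lists coincided. In the leading 100 rows, Sp1 replicates 1 and 2 had 18 and 23 peaks over control peaks, and Dlx5 replicates had 7 and 0. With them left out, among the first 500 merged peaks of each list, Dlx5 replicate 1 met Sp1 replicate 1 at 2 places and Sp1 replicate 2 at 1 place, and Dlx5 replicate 2 met neither Sp1 list (0 of 500 each). With control peaks kept, a setting chosen after seeing the data, Dlx5 replicate 1 met them at 22 and 21 places and replicate 2 again at 0. Among the first 1000 the 4 pairs of lists gave 2 to 5 shared places, that is 0.2% to 0.5%, and 0.7% to 3.6% with control peaks kept. At 5000 the shares were 2.6% to 3.94% and at 10000 they were 7.08% to 12.1% (3% to 5.08% and 7.25% to 12.5% with control peaks kept). Replicates of a factor, cut to the same lengths, shared 68.8% to 70.0% for Dlx5 and 73.8% to 82.2% for Sp1. All 4 pairs across factors lay below both replicate pairs at each of the 5 lengths. At equal length the 2 Sp1 lists also gave similar values, at 3.78% and 3.94% with Dlx5 replicate 1 and 2.68% and 2.6% with replicate 2 over the first 5000.

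**Figure D1:**
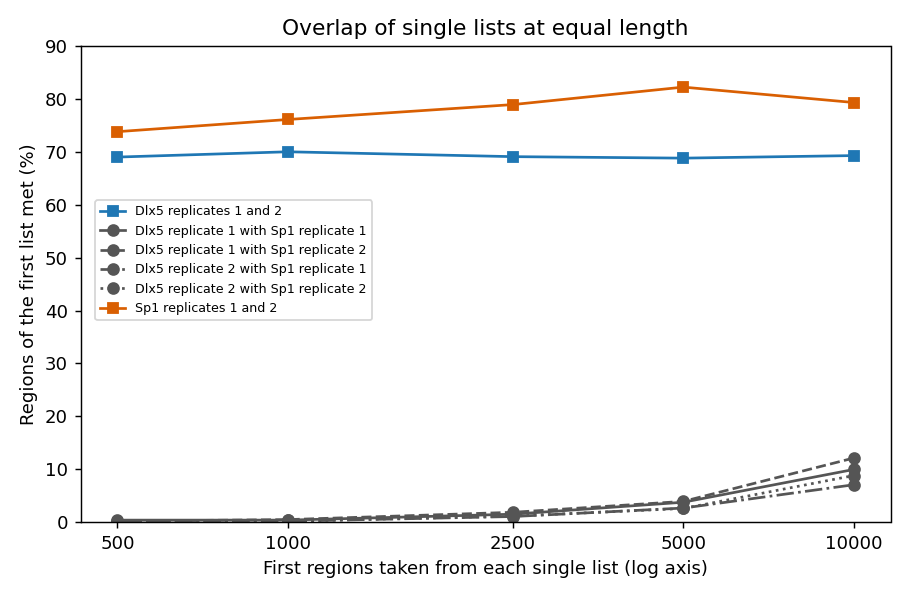
Share of the first list's regions met by the second (vertical axis, %) against the number of first regions taken from each single list (horizontal log axis). The 4 grey lines pair Dlx5 with Sp1 lists and stay at or below 12.1%, while replicates of Dlx5 (blue) and of Sp1 (orange) stay at or above 68.8%.

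Where the leading Dlx5 regions met Sp1, it was more often at late than at early Sp1 regions. Regions were ordered by their mean row position in both replicates and cut into 5 equal parts. The first part of Sp1 met Dlx5 in 39.2% of its 1789 regions and the later parts in 25.9% to 30.8%. Dlx5 met Sp1 least in its first part, at 8.86%, and most in its last, at 16.2%. Of the 423 pairs of the first Dlx5 part, 136 (32.2%) were with the last part of Sp1, which held 20.1% of all pairs, and 85 (20.1%) were with the first, which held 25.5%. The leading Sp1 regions also met late Dlx5 regions more often than early ones. Of their 703 pairs, 193 (27.5%) were with the last part of Dlx5 and 85 (12.1%) with the first. These parts held 27.9% and 15.4% of all pairs. Set against that, the share with the last part was as in all pairs, and only the share with the first was lower. The smallest count, 41 pairs, was that of the first part of Dlx5 with the second part of Sp1. Across the 2755 overlapping pairs, the row positions in both factors had a Spearman correlation of -0.13, a description over pairs that come from the same lists.

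**Figure D2:**
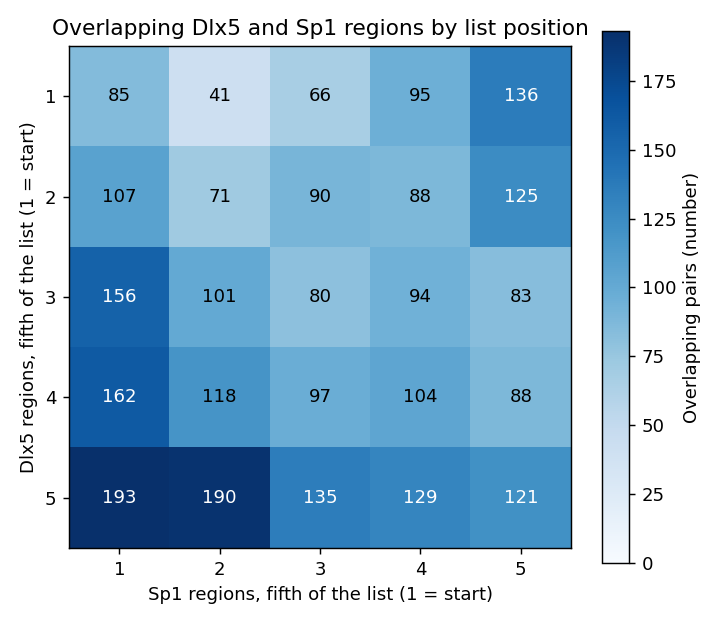
Number of overlapping pairs of Dlx5 regions (vertical axis) and Sp1 regions (horizontal axis) by part of the list, from 1 at the start to 5 at the end, with darker blue for more pairs. The counts run from 41 to 193, and row 5 and column 1 have the largest totals, 768 and 703 of 2755 pairs, so that 193 where they cross is 27.5% of column 1, close to the 27.9% of all pairs in row 5.

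Overlapping pairs also lay less squarely on each other than replicates of a factor did. The regions of a pair shared a median of 152 bp and their midpoints were a median of 66.5 bp apart, with quartiles of 24.5 and 132.5 bp. In 55.5% of pairs the shared stretch was at least 50% of both regions, and 42.3% of pairs had midpoints under 50 bp apart. In single lists the median distance was 42.5 to 60 bp over the 4 pairs of Dlx5 and Sp1 lists, against 26.5 bp between the Dlx5 replicates and 25 bp between the Sp1 replicates. Over the first 5000 rows it was 25.8 to 39.8 bp, against 14.5 and 17 bp, so all 4 values across factors lay above both replicate values each time. The values over the first 5000 rows rest on 130 to 197 overlapping places across factors, against 3440 for the Dlx5 and 4111 for the Sp1 replicates. The pairing was nearly always 1 to 1: 5 Dlx5 regions met more than 1 Sp1 region and 22 Sp1 regions met more than 1 Dlx5 region.

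Most regions that did not overlap had no region of the other factor within 10 kb. How often unrelated sets of these sizes would lie so close was not tested. Of the 20939 Dlx5 regions without Sp1, 969 (4.63%) had the midpoint of an Sp1 region within 1 kb and 17.7% within 10 kb, and their median distance to Sp1 was 59.0 kb. Of the 6209 Sp1 regions without Dlx5, 734 (11.8%) had a Dlx5 region within 1 kb and 36.8% within 10 kb, with a median distance of 18.0 kb. The Dlx5 set is the denser, which shortens distances to it. When it was shortened to its first 8942 regions, the number of Sp1 regions, the median distance from any Sp1 region to Dlx5 was 49.3 kb, against 5.87 kb with all Dlx5 regions.

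The regions at the head of the lists are named here with the Sp7 sets that met them, and the shares of their classes beside them. The 5 leading Dlx5 regions without Sp1 were chr15:97859532-97859705, chr19:23458784-23458956, chr5:33656652-33656816, chr19:24794075-24794272 and chr6:4457479-4457665. They stood in rows 1 to 5 of both replicates, and each was also a region of Sp7 in the cell line, of the form labelled Sp7mut and of Sp7 in primary osteoblasts. In the first of 5 parts of the Dlx5 order, the regions without Sp1 were met by these in 45.6%, 49.4% and 22.4% of cases. The fourth of them lay 1.39 kb from an Sp1 region and the others 19.1 to 110.5 kb. The 5 leading Sp1 regions without Dlx5 were chr2:148498225-148498366, chr13:54795216-54795448, chr10:126478915-126479031, chr17:35196655-35196784 and chr8:97958703-97958908. None of these was a primary Sp7 region, 3 were cell line Sp7 regions and 4 were Sp7mut regions. In the first part of the Sp1 order, the shares without Dlx5 were 0% for primary Sp7, 11.7% for cell line Sp7 and 38.8% for Sp7mut. Having none with primary Sp7 is thus the rule for this class, and 5 regions are too few to set the classes apart. The third of them had a Dlx5 region 0.725 kb away. The pair of overlapping regions with the best mean position was chr11:102994167-102994396, at 1.74% of the Dlx5 list and 0.256% of the Sp1 list. The next were chr2:91489943-91490253, chr9:44689407-44689678, chr6:71583132-71583369 and chr2:168032594-168033032. All 5 were cell line Sp7 and Sp7mut regions, and none was a primary Sp7 region. Over all Dlx5 regions with Sp1 the shares were 41.6%, 62.9% and 3.31%. No gene is named at these places because no annotation of mm9 was used.

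Dlx5 regions were the more clustered in the full sets, and most of that difference went with their number. Of Dlx5 regions 47.5% had another Dlx5 region within 10 kb (midpoint to midpoint), against 24.5% for Sp1. The median gap to the nearest region of the same set was 11.1 kb for Dlx5 and 32.6 kb for Sp1. Shortened to 8942 regions, Dlx5 gave 26.6% when its first regions were taken and 23.5% when it was thinned evenly along its order, on either side of the Sp1 value. Within 1 kb, 10.5% of all Dlx5 regions and 5.92% of Sp1 regions had a neighbour, but both shortened Dlx5 sets lay under Sp1, at 3.10% and 3.85%.

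In single lists the factors could not be told apart at 10 kb. The shares within 10 kb were 54.2% and 62.2% in the Dlx5 lists and 36.0% and 58.9% in the Sp1 lists, with overlapping ranges. Over the first 10223 merged peaks of each, the length of Sp1 replicate 1, they were 29.2% and 30.9% for Dlx5 and 36.0% and 27.6% for Sp1, which overlapped again. Neighbours within 1 kb were fewer in both Dlx5 lists at that length (5.03% and 3.96%) than in both Sp1 lists (19.9% and 7.15%). The 19.9% is that of a whole list, Sp1 replicate 1, and only Sp1 replicate 2 was cut as the Dlx5 lists were. Uncut, Dlx5 replicate 1 had 18.18% of its merged peaks within 1 kb of another, and Dlx5 replicate 2 had 19.88%. Sp1 replicate 1, at 19.86%, lay between them, and Sp1 replicate 2 stood at 26.46%. Whole lists thus overlapped at 1 kb too. An exact two-sided permutation test of 2 lists against 2 cannot fall below p = 0.333. That was its value for neighbours within 1 kb at equal length. The same holds for each measure below on which the Dlx5 and Sp1 lists do not overlap.

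**Figure D3:**
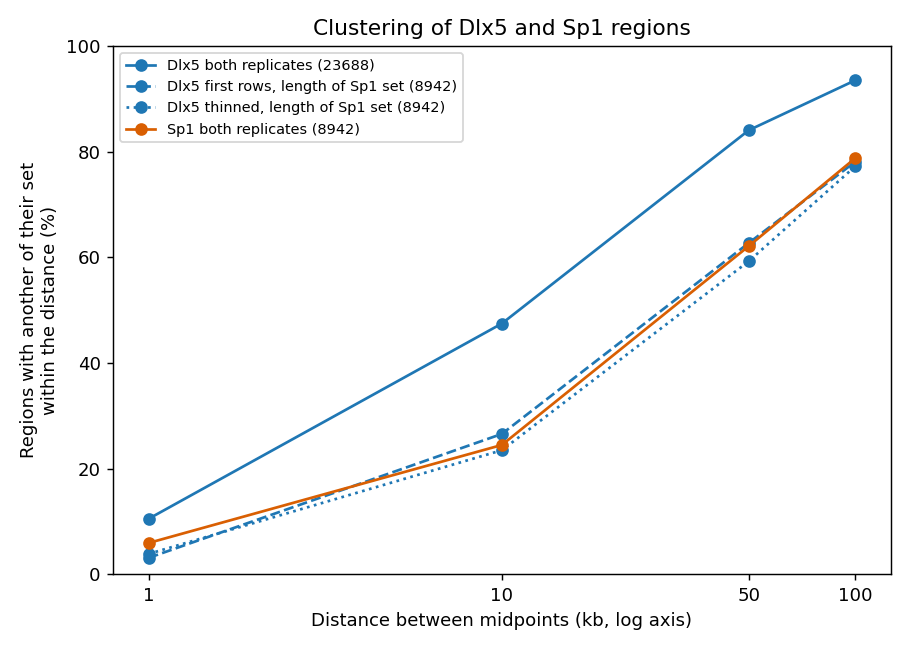
Share of regions with another region of their set within a distance (vertical axis, %) against that distance (horizontal log axis, kb), for the full Dlx5 set, both shortened Dlx5 sets of 8942 regions and the Sp1 set. At 10 kb the full Dlx5 set is at 47.5%, and the other 3 lie between 23.5% and 26.6%.

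Clusters were formed by chaining regions less than 10 kb apart. Dlx5 had 1463 clusters of 3 or more regions, which held 22.8% of its regions, and 243 of 5 or more. Sp1 had 191 of 3 or more, with 7.29% of its regions, and 16 of 5 or more. The Dlx5 set shortened to its first 8942 regions had 212 and 13, and the thinned set 143 and 6. Dlx5 regions met Sp1 about as often inside clusters as outside: the share was 11.8% for Dlx5 regions alone within 10 kb and 12.4% for those in clusters of 5 or more, with 11.7% and 10.7% between. For Sp1 the share with Dlx5 was 29.6% for lone regions, 33.0% in pairs, 34.2% in clusters of 3 to 4 and 40.9% of the 88 regions in clusters of 5 or more. Larger Sp1 clusters were also more often on gene-rich chromosomes, at 32.6% for lone regions and 40.9% to 48.6% for the others, and the part of this in the shares was not tested. Of the 191 Sp1 clusters of 3 or more, 146 (76.4%) held a Dlx5 region within their bounds, while 530 (36.2%) of the 1463 Dlx5 clusters held an Sp1 region. These shares are not on equal terms, since there are 23688 Dlx5 regions and 8942 Sp1 regions to be held. Sets of equal size were not compared.

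The largest cluster of Dlx5 was free of Sp1 regions. At chr6:4457479-4496003 it held 21 Dlx5 regions over 38.5 kb, and no Sp1 region lay inside. The Dlx5 lists had 36 peaks there in each replicate. Sp1 replicate 1 had 0 peaks and replicate 2 had 19, so the absence of Sp1 rested on replicate 1. This stretch also held 6 regions of cell line Sp7, 3 of Sp7mut and 2 of primary Sp7. Another 2 clusters held 11 Dlx5 regions each. That at chr13:23516224-23545635 had 2 regions that met Sp1, and that at chr11:94774841-94800842 was a place of both factors: 6 of its regions met Sp1, and it overlapped the Sp1 cluster at chr11:94790247-94811503, with 7 Sp1 regions. Another Sp1 cluster of 7 regions, the first by position, was at chr10:79622574-79635992, where 5 of the 7 met Dlx5 and 6 Dlx5 regions lay within 13.4 kb. There the Sp1 lists had 8 and 10 peaks and the Dlx5 lists 8 and 6.

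Sp1 leaned towards gene-rich chromosomes more than Dlx5 did. The 5 autosomes with most protein-coding genes per Mb were 7, 11, 19, 17 and 2, with genes counted by chromosome in the RefSeq table of GRCm38.p6 and chromosome length taken as the span of peaks. These chromosomes make up 23.3% of the span and hold 32.8% of the genes. They held 35.2% of Sp1 regions (95% Clopper-Pearson interval 34.2 to 36.2) and 29.3% of Dlx5 regions (28.7 to 29.9). In single lists the values were 35.7% and 33.5% for Sp1 and 29.4% and 29.0% for Dlx5, so that the means differed by 5.38 percentage points, more than the spread within Sp1 (SD 1.53, n = 2) or Dlx5 (SD 0.243, n = 2). On the 5 gene-poorest autosomes, 12, 18, 1, 3 and 13, the order was the reverse, at 17.7% of Sp1 and 23.0% of Dlx5 regions. Shortening Dlx5 to 8942 regions left its gene-rich share at 28.9% (first regions) and 28.8% (thinned). For Sp1 the longer list, replicate 2, had the lower share, 33.5% against 35.7%. The part of list length in the difference between the factors was not tested.

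Density per chromosome showed the same contrast. Dlx5 ranged from 5.85 regions per Mb on chromosome 14 to 14.7 on chromosome 17, and Sp1 from 2.08 on chromosome 14 to 7.23 on chromosome 11. Across the 19 autosomes the density of Dlx5 had a Pearson correlation of 0.48 with gene density, and that of Sp1 0.84. In the single lists r was 0.49 and 0.50 for Dlx5, and 0.84 and 0.81 for Sp1. These correlations describe chromosomes of the same libraries, which are not replicates. Chromosome 7, the densest in genes at 13.6 per Mb, had 6.94 Dlx5 and 3.99 Sp1 regions per Mb, far under chromosome 11 with nearly the same gene density (13.6 per Mb) at 14.4 and 7.23. Chromosomes 6, 10 and 15 were high for Dlx5, at 12.8, 12.8 and 11.9 per Mb, with only 7.71, 7.88 and 7.75 genes per Mb. The number of Dlx5 regions per Sp1 region ran from 1.74 on chromosome 7 to 3.86 on chromosome 13.

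**Figure D4:**
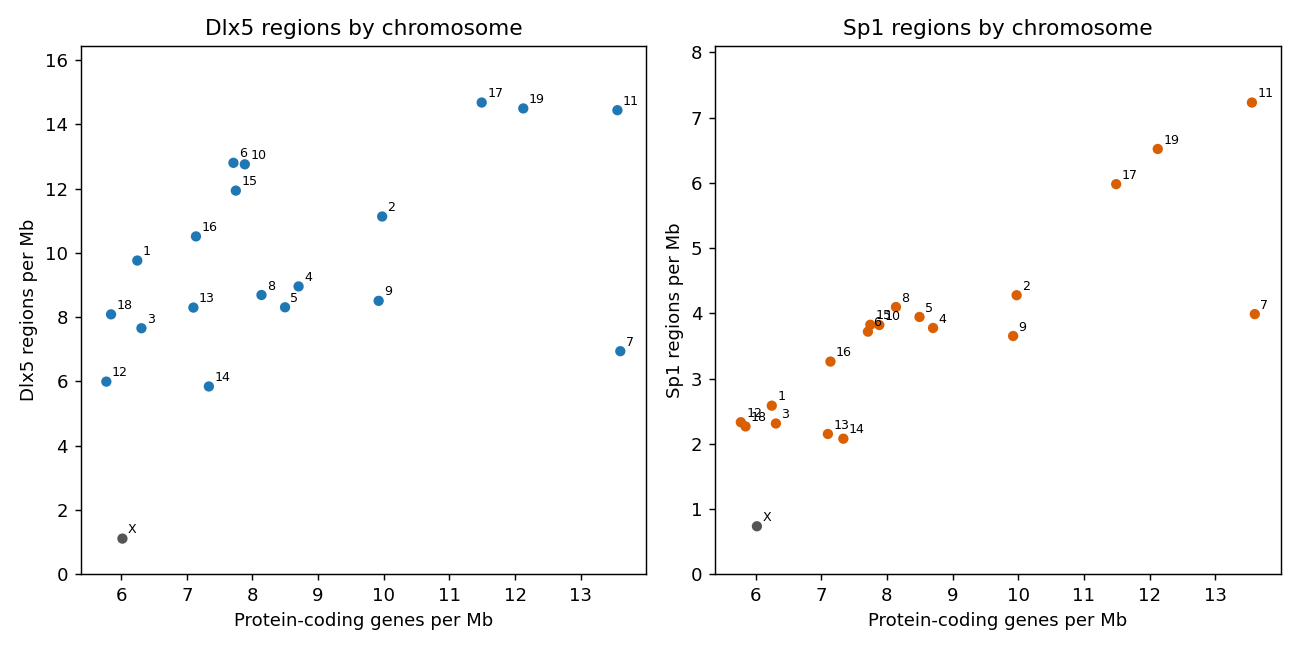
Regions per Mb (vertical axes, Dlx5 left and Sp1 right) against protein-coding genes per Mb (horizontal axes), 1 point per autosome with X in grey and Y not drawn. Sp1 follows gene density more closely (Pearson r 0.84 over the 19 autosomes) than Dlx5 (0.48). Chromosome 7 lies low for its gene density in both panels, and X is the lowest point drawn in each.

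Densities of both factors went with promoters that hold GC-box letters more than with the others. Of 21263 RefSeq promoter windows of protein-coding genes (300 bases, GRCm38.p6), 46.2% hold the GC-box letters GGGCGG and 23.5% the homeodomain core TAATT on either strand. Sp1 regions per Mb had a correlation of 0.82 with GGGCGG promoters per Mb and 0.62 with the other promoters. For Dlx5 the values were 0.50 and 0.31, a gap of like size. With TAATT promoters and with the others, the values were 0.38 and 0.41 for Dlx5 and 0.62 and 0.75 for Sp1. For Sp1, none of these passed its 0.84 with gene density. For Dlx5, only the 0.50 with GGGCGG promoters lay above its value with gene density, 0.48. The windows were counted by chromosome only and not matched to any region.

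The X chromosome was poor in regions of both factors. It makes up 6.25% of the span and has 4.41% of the genes, and held 178 Dlx5 regions (0.751%) and 118 Sp1 regions (1.32%). In single lists the share was 0.826% and 0.948% for Dlx5 and 1.27% and 1.50% for Sp1, so both Sp1 lists lay above both Dlx5 lists. On X 13 Dlx5 regions met an Sp1 region.

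The share of sites with both factors also differed between chromosomes. On the autosomes Sp1 met between 5.47% of Dlx5 regions, on chromosome 13, and 17.9%, on chromosome 11. Dlx5 met between 15.3% of Sp1 regions, on chromosome 12, and 48.6%, on chromosome 6. These chromosomes also differed in how many regions there were to meet. Sp1 had 2.15 regions per Mb on chromosome 13 and 7.23 on chromosome 11, and Dlx5 had 6.00 on chromosome 12 and 12.8 on chromosome 6. The part of such densities in the ranges, and in the gene-rich shares that follow, was not tested. Regions of both factors were on the 5 gene-rich chromosomes in 38.0% of cases (36.2 to 39.8), against 28.1% (27.5 to 28.7) for Dlx5 without Sp1 and 34.0% (32.9 to 35.2) for Sp1 without Dlx5.

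Sp1 was packed into fewer places than Dlx5. In bins of 1 Mb, 2044 held a region of either factor, 1629 of both, 362 only of Dlx5 and 53 only of Sp1. The 10% of bins with most regions of a factor held 39.0% of Sp1 regions and 27.3% of Dlx5 regions. In single lists it was 38.8% and 34.3% for Sp1 and 26.8% and 26.5% for Dlx5, which did not overlap. The Dlx5 set shortened to 8942 regions stayed under the Sp1 value, at 31.7% for first regions and 29.5% for the thinned set. Ranking bins within each autosome, a step chosen after seeing the data, gave 35.0% for Sp1 and 24.8% for Dlx5, with 34.6% and 30.9% in the Sp1 lists and 24.2% and 24.3% in the Dlx5 lists. The shortened Dlx5 sets gave 28.3% and 26.9% there. Both factors were frequent in the same bins: the Pearson correlation of their counts over these 2044 bins was 0.53 (Spearman 0.59), a description in which bins share libraries and sequence make-up. Median Dlx5 counts were 2 in bins with no Sp1 region, 7 in those with 1 to 4, 14 with 5 to 9, 19 with 10 to 19 and 29 with 20 or more. The share of Dlx5 regions that met Sp1 was 6.82% in bins with 1 to 4 Sp1 regions and 33.0% in the 51 bins with 20 or more. The bins were sorted by the same Sp1 regions that could be met, so a rise of this share is in part built in.

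The densest bins showed how the factors part and meet. The bin with most Dlx5 regions, chr10:127000001-128000000, held 53 of Dlx5 and 29 of Sp1, and 13 of the Dlx5 regions met Sp1. The next, chr1:92000001-93000000, held 50 and 4. The bin with most Sp1 regions, chr10:79000001-80000000, held 47 of Sp1 and 36 of Dlx5, and 20 of the latter met Sp1. Its peaks numbered 54 and 118 in the Sp1 lists and 46 and 52 in the Dlx5 lists. The Sp1-free bin with most Dlx5 regions, chr2:50000001-51000000, picked after its values were seen, held 33 of them, with 43 and 50 Dlx5 peaks and 1 and 8 Sp1 peaks.

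Sp7 in its several forms came from lists that did not enter the classes. Where Dlx5 and Sp1 met, Sp7 and Sp7mut were frequent. Of Dlx5 regions with Sp1, 41.6% were cell line Sp7 regions (95% Clopper-Pearson interval 39.7 to 43.4), against 14.9% (14.4 to 15.4) of those without Sp1. For Sp7mut the shares were 62.9% (61.0 to 64.7) and 18.6% (18.0 to 19.1). Against single lists in place of regions, cell line Sp7 gave 81.4% and 42.9% with Sp1 and 40.7% and 17.0% without, and Sp7mut 68.6% and 75.7% with Sp1 and 21.4% and 30.7% without. The ranges did not overlap for either factor, and within each list the share with Sp1 was the higher. Regions of either Sp7 form covered 67.6% of Dlx5 regions with Sp1 and 23.8% of those without.

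From the side of Sp1 the gap was wider for cell line Sp7 and narrower for Sp7mut. Of Sp1 regions with Dlx5, 41.3% were cell line Sp7 regions and 63.5% Sp7mut regions, against 6.38% and 24.7% of Sp1 regions without Dlx5. Dlx5 regions with Sp1 were wider than those without (median 253 and 216 bp), while Sp1 regions with and without Dlx5 had nearly the same width, at 196 and 200 bp. The part of width in these shares was not tested. The difference was present in each of the 5 parts of both row orders: in the first part of Dlx5 cell line Sp7 met 72.9% with Sp1 and 45.6% without, and in the last part 22.2% and 2.49%. In the first part of Sp1 the shares were 56.1% and 11.7%, and in the last 31.3% and 3.39%. Cell line Sp7 was called against the input of Dlx5, and Sp7mut against that of Sp1.

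Sp7 of primary osteoblasts, tagged on both alleles of its own gene, was more frequent at Dlx5 regions without Sp1. It met 6.49% (6.16 to 6.83) of Dlx5 regions without Sp1 and 3.31% (2.67 to 4.05) of those with Sp1. The share was the lower with Sp1 in all 5 parts of the Dlx5 order, from 22.4% and 15.5% in the first to 0.453% and 0.392% in the last. In the fourth it was 1.51% and 1.23%. The fourth and last parts had only 569 and 766 regions with Sp1, too few at such low shares to show a difference. Its single lists gave 7.53% and 8.32% without Sp1 and 4.29% and 6.29% with. Of the 6209 Sp1 regions without Dlx5 it met 8 (0.129%, 0.0556 to 0.254), against 87 of the 2733 with Dlx5 (3.18%). Over whole lists, primary Sp7 regions covered 4.96% and 4.40% of Dlx5 and 0.968% and 2.13% of Sp1 merged peaks, which did not overlap. Cell line Sp7 regions covered 15.5% and 11.6% of Dlx5 and 15.8% and 12.7% of Sp1 merged peaks, ranges that did overlap.

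**Figure D5:**
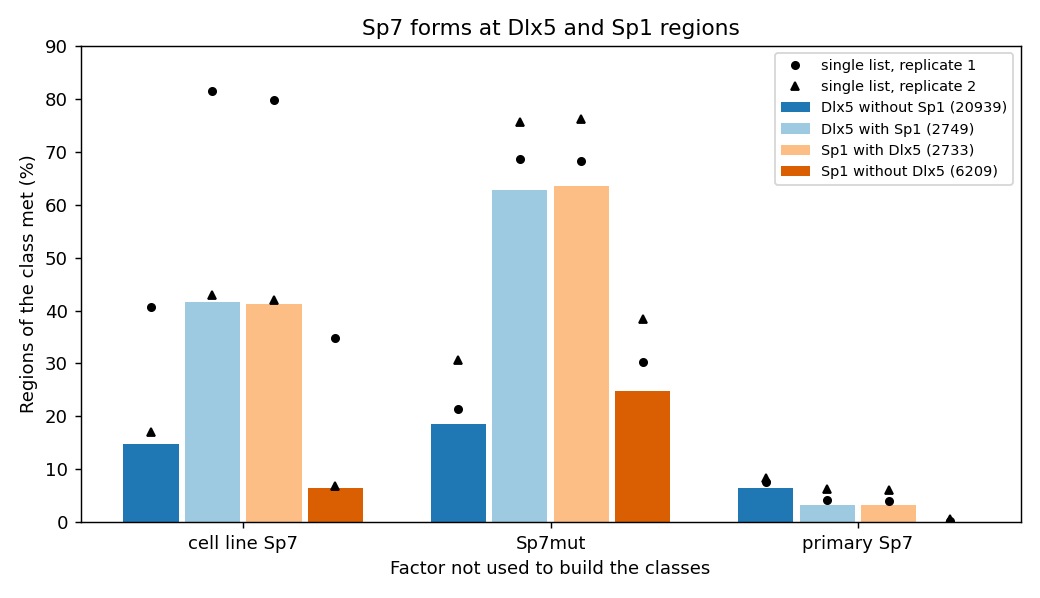
Share of each class of regions (vertical axis, %) met by regions of cell line Sp7, Sp7mut and primary Sp7 (bars), with the share met by the single lists as black points (circles for replicate 1, triangles for replicate 2). Bars for Dlx5 and Sp1 together (pale) reach 41.6% and 41.3% for cell line Sp7 and 62.9% and 63.5% for Sp7mut, above those of either factor without the other, and primary Sp7 is highest at Dlx5 without Sp1 (6.49%).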

How the data were processed

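Peak lists of FLAG ChIP-seq in MC3T3-E1 cells were used as deposited: 3 columns, chromosome, start and end, with build mm9 named in the submitters' processing notes. Neither aligner nor caller is given in the sources used here. In the labels, Dlx5 is said to be called against a first and Sp1 against a second cell line input. Groups came from sample titles. Overlapping or touching peaks were merged. Regions needed a peak of both replicates and no control peak, and coordinates are 1-based. Single lists were merged and cleared of control peaks in the same way. Shares of regions have 95% Clopper-Pearson intervals, and measures per list an exact permutation test. The lists hold no counts, so depth is unknown. The members, measures and named regions were chosen with earlier results of these data known. Named are the 5 leading regions of each class and the largest clusters and densest bins. Genes per chromosome came from GRCm38.p6, without its coordinates. Planned analyses of transcription starts, motifs at regions and gene lists were not run, since they need mm9 sequence or annotation. The code was tested on simulated lists. Software was Python 3.11.15 with scipy 1.17.1, pandas 2.3.3, numpy 2.4.6, and matplotlib 3.10.9 for plots.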

Additional observations from a re-analysis of the deposited data

How the results depend on the processing

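Of 81 values under another setting, 42 stayed within the spread (1 SD) of the single lists and 39 moved by more. That 0 changed sign says little, since most are shares, which cannot. Staying within the spread also says little where the SD exceeds the value. This was so for Dlx5 regions with Sp1 (11.6%, SD 13.2). It was also so for cell line Sp7 at Dlx5 regions without Sp1 (14.9%, SD 16.7) and at Sp1 regions without Dlx5 (6.38%, SD 19.8). Primary Sp7 at Sp1 regions without Dlx5 (0.129%, SD 0.307) was a further case. The cause of the moves was not tested beyond what each setting does to the lists. No paired analysis was possible because the lists carry no values to fit and the replicate numbers share no stated source. The share of Dlx5 regions with Sp1 was 9.03% to 39.0% when a replicate was left out, the highest without Sp1 replicate 1, and that of Sp1 regions with Dlx5 28.3% to 39.1%. The latter was 17.1% when the overlap had to be 50% of both regions, 12.7% for the earlier and 12.7% for the wider 50% of each list, 9.39% and 15.2% at equal length by row position and by width, and 11.5% with Dlx5 thinned. The former under these settings was 6.45%, 5.14%, 5.16%, 9.36%, 15.3% and 11.5%. Neighbours within 10 kb became 54.2% to 62.2% for Dlx5 and 36.0% to 58.9% for Sp1 with a replicate left out. For Dlx5 they were 31.5% in the earlier 50% of each list, 26.6% at equal length and 23.5% thinned. At 1, 50 and 100 kb the shares were 10.5%, 84.0% and 93.5% for Dlx5 and 5.92%, 62.1% and 78.7% for Sp1. The gene-rich share of Dlx5 was 28.9% and 28.6% in the earlier and wider 50%, 28.9% and 29.0% at equal length by row position and width and 28.8% thinned, and that of Sp1 33.5% to 35.7% with a replicate left out. The correlation with gene density without chromosomes 7 and 11 was 0.65 for Dlx5 and 0.91 for Sp1, 0.49 to 0.50 and 0.81 to 0.84 with a replicate left out, and over promoters with and without GGGCGG 0.50 and 0.31 for Dlx5 and 0.82 and 0.62 for Sp1. With an overlap of 50% of both, primary Sp7 met 5.62% of Dlx5 regions without Sp1, and Sp7mut met 18.4% of Sp1 regions without Dlx5 and 54.0% of Dlx5 regions with Sp1, the last 68.8% in the earlier 50%.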
